A study of Mus musculus with 12 samples.

Results

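Cortex microglia made up 3 of the 12 RNA-seq libraries, chosen by their tissue label, and were set against the equally weighted mean of the 3 hippocampus, 3 striatum and 3 cerebellum libraries across all expressed genes. Every library came from wild-type male C57BL/6N mice at postnatal day 60. For each library, the dissected region of 3 to 5 mice was combined, and 3000 live cells of the TMEM119+ gate, which were also CD45low and CD11b+, were sorted after ice-cold douncing and myelin removal. Whether the 3 pools per region used different mice is not recorded, so p-values reflect the spread between libraries, which may be technical. The comparison asks whether microglia of the adult cortex differ in expression from those of the other regions.

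Microglia are the resident macrophages of the brain parenchyma. They depend on CSF1R signalling for survival, take up synapses, debris and apoptotic cells, and sense nucleotides and danger signals through purinergic and Toll-like receptors. TMEM119, the surface protein used for sorting, is made by most adult parenchymal microglia and is largely absent from border macrophages and blood monocytes.

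Depth and quality differed between libraries. The total counts were 12703936, 14833340 and 9525930 in cortex 1, 2 and 3, against 6479839 (striatum 2) to 12897889 (hippocampus 3) in the others. Striatum 2 had no count for 986 (9.84%) of 10018 well covered genes, those averaging 50 counts or more, whereas each other library lacked 4 to 44 of them. Cortex 1 leaned towards short transcripts, as described below. The kit does not mark strand, so a gene and its antisense neighbour can each receive reads of the other, and near-identical copies may share reads. In bulk RNA, fewer cells of a type and less RNA per cell cannot be told apart.

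The cortex libraries carried the RNA of microglia. Per kilobase of transcript, the most abundant messages in cortex were those of the complement chains C1qb (3419.7 CPM per kilobase, mean of 3 libraries) and C1qc (3356), the protease inhibitor Cst3 (3005) and the actin-binding peptide Tmsb4x (2889). The lysosomal protease Ctsd (2621), the lipid carrier Apoe (2484) and the purinergic receptor P2ry12 (1784) were also abundant on the same scale. Tmem119 itself stood at 2601, 2107 and 1341 CPM in cortex 1, 2 and 3, and at 1082 to 3241 CPM in the 9 other libraries (median 1952), where CPM are counts scaled to a common library size with TMM, the trimmed mean of M values. The cortex libraries lay within the range of the others for this gene, with a log2 difference of 0.07 (SE 0.27) that was −0.16 without cortex 1 and 0.29 without cortex 3.

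Summed levels of the markers of other brain and blood cells overlapped between cortex and the other regions. Summed over 18 neuronal markers, the level was 9.19 to 36.2 CPM in cortex and 9.26 to 49.04 CPM in the other libraries; Nefl, Nefm, Slc17a6 and Thy1 had no count in any cortex library. The sum of 23 markers of regional neurons was 18.99 to 30.1 CPM in cortex and 2.10 to 33.8 CPM in the other libraries, with 11 at 0 in all cortex libraries, among them the cortical projection neuron genes Tbr1 and Cux2. For 15 astrocyte markers it was 258 to 368 CPM in cortex and 213 to 378 CPM in the other libraries (Gjb6 at 0), and for 14 oligodendrocyte markers 100.3 to 184 CPM in cortex and 113 to 200.3 CPM in the other libraries (Mobp, Mal and Ermn at 0). The 9 markers of oligodendrocyte precursors gave 0.760 to 7.89 CPM in cortex and 0.0781 to 11.6 CPM in the other libraries. For each of these neural cell types the cortex libraries and the others shared most of their range. The 15 endothelial markers gave 502 to 720.3 CPM in cortex and 432 to 711 CPM in the other libraries, with Cldn5, Tek, Tie1 and Esam at 0 in cortex, and the 16 mural and fibroblast markers 1.68 to 18.5 CPM in cortex and 1.85 to 80.5 CPM in the other libraries. The 12 choroid plexus and ependymal markers gave 0.608 to 117 CPM in cortex and 0.211 to 857 CPM in the other libraries, with Foxj1 and Kl at 0 in cortex, and the 17 lymphocyte markers 103 to 205 CPM in cortex and 92.5 to 247 CPM in the other libraries, with Cd3d, Cd3e and Ms4a1 at 0. The 19 monocyte and neutrophil markers gave 293, 322 and 395 CPM in cortex 1, 2 and 3 and 373 to 504 CPM in the other libraries, with Ly6c2 and S100a9 at 0. Cortex 1 and 2 thus lay below every other library for this sum, which includes Csf3r, described below. The 6 erythroid markers gave 12.5 to 137 CPM in cortex and 0.312 to 149.6 CPM in the other libraries. The part of these cells in any difference below was not tested.

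No gene passed the main test between cortex and the other regions. Of 12217 genes tested with edgeR, 0 (0.00%) passed a Benjamini-Hochberg adjusted p of 0.05 when cortex was set against the other 3 regions, and 0 passed against hippocampus, striatum or cerebellum alone. At an unadjusted p under 0.05 stood 293 genes (2.40%) against the mean, 118 higher in cortex (0.966%) and 175 lower (1.43%). The share of 2.40% lay below the fraction of 0.05 that this threshold gives when no gene differs. The corresponding counts were 124 against hippocampus, 683 against striatum and 189 against cerebellum, comparisons that share the cortex libraries. DESeq2 called 7 genes against the mean, described below, and limma-voom called 0, with 472 genes at an unadjusted p under 0.05. Without cortex 1, edgeR called 0 genes and 137 stood at an unadjusted p under 0.05. Without both cortex 1 and striatum 2, it called 0 and 308 did, 150 higher and 158 lower.

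The cortex libraries were not shown to resemble each other more than they resembled the other libraries. The Pearson correlation (r) of log2 CPM averaged 0.895 among the 3 cortex libraries and 0.889 between cortex and the other libraries, a difference of 0.0060 (exact one-sided permutation test over 220 choices of 3 libraries, p = 0.673; the smallest p this design allows is 0.00455). Without striatum 2 the difference was −0.0110 (exact permutation p = 0.903), without cortex 2 it was −0.0070 (exact permutation p = 0.80), and without both cortex 1 and striatum 2 it was −0.0077 (exact permutation p = 0.822).

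The genes named first on the cortex side were those whose 3 cortex libraries lay above all 9 others. There were 39 of these (0.319% of the genes tested), and another 38 lay below all 9 others (0.311%). None had an adjusted p under 0.05. The cortex libraries are 1 of 220 choices of 3, a fraction of 0.00455. Random ordering of the libraries would place them above all others in about that fraction of genes, and neither count exceeds it. Mad1l1, which encodes a spindle assembly checkpoint protein (chr5:140008689-140321552, minus strand, GRCm38), stood at 75.6, 81.2 and 77.4 CPM in cortex 1, 2 and 3, and at 12.4 to 57.5 CPM in the 9 other libraries (median 41.8). The cortex libraries lay close together and the lowest value belonged to striatum 2, for a log2 difference of 0.92 (SE 0.29, edgeR unadjusted p = 0.00689, adjusted p = 1.00), and of 0.83 without cortex 1 and striatum 2. Bop1, a factor of ribosomal RNA processing, had 98.4, 103 and 88.9 CPM in cortex 1, 2 and 3, against 46.1 to 84.1 CPM in the 9 other libraries (median 66.6). Hippocampus 1 came nearest to cortex, and the log2 difference was 0.57 (SE 0.19). Rcc1, the nucleotide exchange factor of the small GTPase Ran, had 104, 91.5 and 93.6 CPM in cortex 1, 2 and 3, against 56.3 to 82.4 CPM in the 9 other libraries (median 72.96). Its log2 difference of 0.44 (SE 0.17) was similar against each region: 0.42 against hippocampus, 0.53 against striatum and 0.38 against cerebellum. Gtf2h1, a subunit of the transcription and repair factor TFIIH, had 60.8, 69.2 and 64.7 CPM in cortex 1, 2 and 3, against 37.99 to 58.5 CPM in the 9 other libraries (median 47.7), with hippocampus 2 and cerebellum 2 nearest to cortex (log2 difference 0.44, SE 0.19). Mad1l1 and Bop1 overlap genes on the other strand (Gm16121 and Mroh1).

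Immune and metabolic genes were among the others on this side. Ccl2, the chemokine that draws monocytes, had 32.1, 31.6 and 25.7 CPM in cortex 1, 2 and 3, against 0 to 18.3 CPM in the 9 other libraries (median 11.4). No count was found in striatum 2, and the difference from each region was 1.01 against hippocampus, 2.04 against striatum and 1.56 against cerebellum on the log2 scale (against the mean 1.54, SE 0.74; 1.30 without cortex 1 and striatum 2). Pilra, an inhibitory receptor of myeloid cells, had 47.4, 45.2 and 41.8 CPM in cortex 1, 2 and 3, against 13.3 to 41.3 CPM in the 9 other libraries (median 29.5). Cortex 3 and hippocampus 1 were the nearest pair. Lpxn, leupaxin, an adaptor at adhesion sites of leukocytes, had 95.9, 92.7 and 90.6 CPM in cortex 1, 2 and 3, against 28.3 to 87.6 CPM in the 9 other libraries (median 66.5). Rraga, a Rag GTPase that couples amino acids to the mTOR kinase, had 40.4, 44.97 and 40.01 CPM in cortex 1, 2 and 3, against 24.3 to 37.6 CPM in the 9 other libraries (median 31.9). These genes had log2 differences of 0.59 for Pilra (SE 0.28), 0.52 for Lpxn (SE 0.29) and 0.44 for Rraga (SE 0.24; 0.29 with the replicate block and a length correction). Bcat2, the mitochondrial aminotransferase of branched-chain amino acids, differed by 0.40 (SE 0.20), the Nudix hydrolase gene Nudt19 by 0.74 (SE 0.39; 0.44 without cortex 1 and striatum 2) and the small nucleolar RNA host gene Snhg5 by 0.45 (SE 0.23; 0.21 with the length correction). Pilra, Bcat2 and Nudt19 overlap genes on the other strand. Tm7sf2, a sterol reductase of cholesterol synthesis, is described with its pathway.

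**Figure D1:**
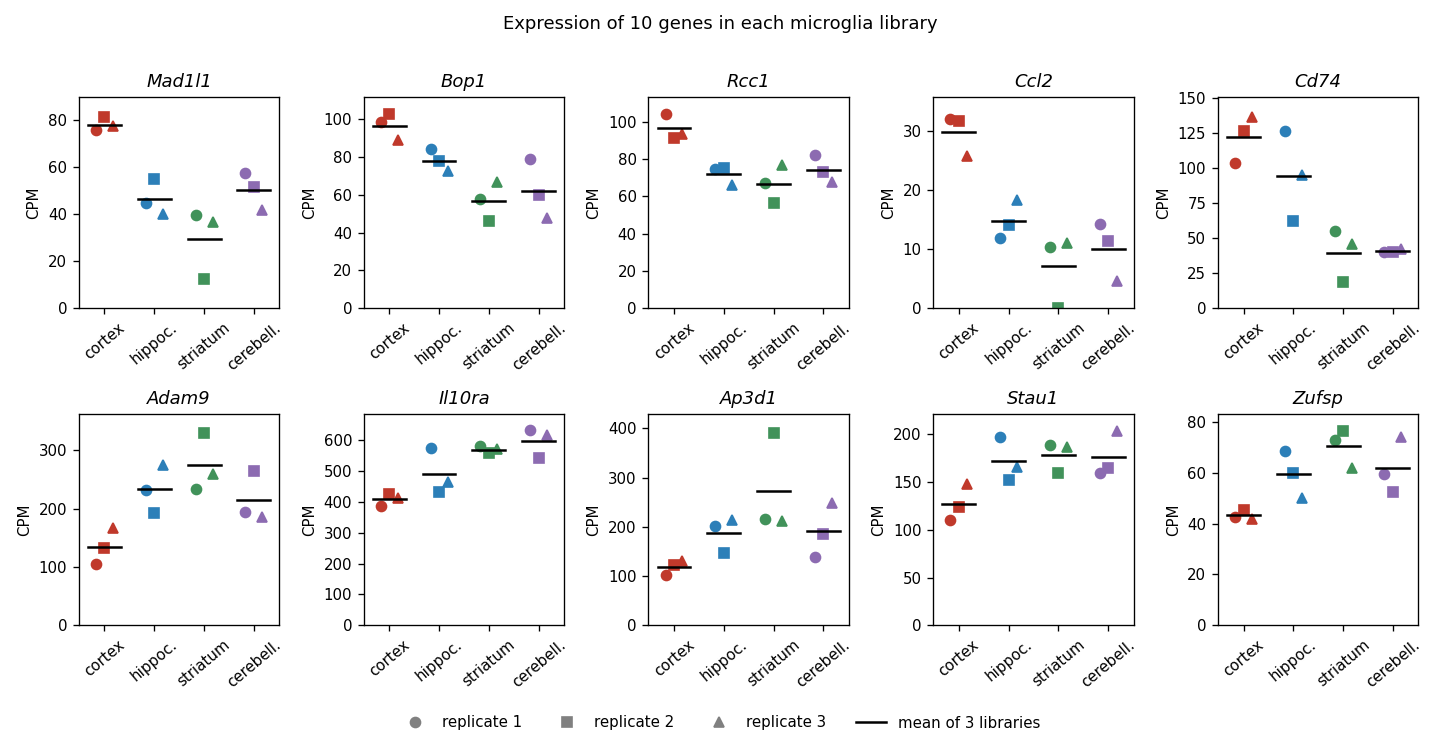
Expression in CPM (vertical axes, from 0) of 10 genes in the 3 libraries of each region, with a bar at the mean. Mad1l1, Bop1, Rcc1 and Ccl2 lay above all other libraries in cortex 1, 2 and 3, and Adam9, Il10ra, Ap3d1, Stau1 and Zufsp below them. Cd74 in cortex, at 104 to 136 CPM, overlapped with hippocampus 1.

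On the lower side, Adam9, Il10ra, Ap3d1 and Dirc2 were among the genes with all cortex libraries below the others. Adam9, a membrane-bound metalloprotease gene (chr8:24949611-25016927, minus strand), stood at 106, 132 and 167 CPM in cortex 1, 2 and 3, and at 186 to 330.3 CPM in the 9 other libraries (median 233). Cortex 3 was the nearest to the others, and the log2 difference was −0.83 (95% interval −1.25 to −0.40; edgeR unadjusted p = 0.00112, adjusted p = 1.00). Without cortex 1 and striatum 2 it was −0.62, and over all alternatives it ranged from −1.01 to −0.62. Il10ra, the ligand-binding chain of the receptor for the anti-inflammatory cytokine IL-10, had 385, 426 and 413 CPM in cortex 1, 2 and 3, against 433 to 632 CPM in the 9 other libraries (median 569). The nearest library was hippocampus 2, and the log2 difference was −0.43 (95% interval −0.70 to −0.17, edgeR unadjusted p = 0.00366), or −0.27 against hippocampus, −0.48 against striatum and −0.55 against cerebellum. Ap3d1, a subunit of the AP-3 adaptor that sorts cargo to lysosomes, had 102, 122 and 131 CPM in cortex 1, 2 and 3, against 139 to 390.2 CPM in the 9 other libraries (median 211). The highest level was in striatum 2, and the log2 difference of −0.85 (SE 0.24) was −0.64 without that library and cortex 1. Dirc2, a transporter of the lysosomal membrane, had 41.5, 42.97 and 30.7 CPM in cortex 1, 2 and 3, against 48.03 to 79.5 CPM in the 9 other libraries (median 55.6; log2 difference −0.61, SE 0.24).

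Other genes with all cortex libraries below the rest had varied roles. Stau1, a binding protein of double-stranded RNA, had 110.4, 124 and 147 CPM in cortex 1, 2 and 3, against 152 to 204 CPM in the 9 other libraries (median 165), and its difference was nearly the same against each region (−0.43 against hippocampus, −0.48 against striatum and −0.47 against cerebellum). Zufsp (now Zup1), a ubiquitin peptidase, had 42.8, 45.4 and 41.7 CPM in cortex 1, 2 and 3, against 50.1 to 76.6 CPM in the 9 other libraries (median 61.9). The cortex values lay within a narrow band, and the log2 difference was −0.56 (SE 0.21). Mtrr, the reductase that keeps methionine synthase active, had 5.62, 13.1 and 14.9 CPM in cortex 1, 2 and 3, against 18.4 to 73.6 CPM in the 9 other libraries (median 23.6); striatum 2 was the highest, and the log2 difference of −1.32 (SE 0.48) was −0.71 without cortex 1 and striatum 2. H2-T24, a nonclassical MHC class I gene, had 14.1, 15.5 and 8.98 CPM in cortex 1, 2 and 3, against 15.97 to 35.3 CPM in the 9 other libraries (median 25.4; log2 difference −0.97, SE 0.35). Class I genes resemble each other, so its counts are uncertain. The myotubularin-related gene Mtmr12 differed by −0.81 (SE 0.28), the cullin neddylation factor Dcun1d1 by −1.05 (SE 0.37), Tmcc3 by −0.70 (SE 0.26) and the inositol phosphatase Inpp5k by −0.45 (SE 0.17).

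Among genes of low level, with a mean under 5 CPM, Fbxl8 stood apart. This F-box gene (chr8:105264648-105269326, plus strand) had 0, 1 and 4 counts in cortex 1, 2 and 3, against 40 to 81 counts in each of the other libraries. In CPM, that is 0, 0.0647 and 0.418 CPM in cortex 1, 2 and 3, against 3.40 to 10.8 CPM in the 9 other libraries (median 6.75). The fitted log2 difference was −5.28 (95% interval −7.86 to −2.70), and it ranged from −7.10 to −4.56 over the alternatives, the first without cortex 3. It had the smallest p of the genes named here in edgeR (unadjusted p = 0.000715, adjusted p = 1.00) and was called by DESeq2 (adjusted p = 2.72e-05). Grk4, a kinase of G protein-coupled receptors, had 0.684, 1.36 and 0.731 CPM in cortex 1, 2 and 3, against 1.41 to 10.02 CPM in the 9 other libraries (median 2.72). On the other side, the lysophospholipid acyltransferase gene Lpcat4 had 6.68, 3.11 and 2.19 CPM in cortex 1, 2 and 3, against 0 to 1.97 CPM in the 9 other libraries (median 0), the small GTPase gene Rab40b had 2.81, 2.14 and 3.34 CPM in cortex 1, 2 and 3, against 0 to 1.29 CPM in the 9 other libraries (median 0), and the small heat shock protein gene Hspb9 had 1.14, 1.04 and 1.15 CPM in cortex 1, 2 and 3, against 0 to 0.554 CPM in the 9 other libraries (median 0). A region had no count in any of its libraries for each of these, hippocampus for Lpcat4, striatum for Rab40b and cerebellum for Hspb9, so no fold is given.

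DESeq2 called 7 genes (0.0576% of the genes it gave an adjusted p), all lower in cortex. Fbxl8 and 1110020G09Rik, an uncharacterised clone, had cortex libraries below all others; the clone had 13.4, 19.2 and 18.3 CPM in cortex 1, 2 and 3, against 27.5 to 53.7 CPM in the 9 other libraries (median 35.5). The other 5 had no count in cortex and were uneven elsewhere. Cd24a reached 18.2 CPM in striatum 1 with a median of 0 CPM over the 9 other libraries, Ctf1 reached 15.2 CPM in striatum 2 with a median of 0.211 CPM over the 9 other libraries, Cyfip2 reached 11.4 CPM in striatum 1 with a median of 0 CPM over the 9 other libraries and Nhsl1 reached 42.8 CPM in striatum 2 with a median of 1.41 CPM over the 9 other libraries. None of these 5 had a p under 0.05 after adjustment in edgeR or limma-voom, and the clone, Cd24a, Ctf1, Cyfip2 and Nhsl1 were named after their values were seen. Against single regions DESeq2 called 5 genes for hippocampus (0.0412%), 13 for striatum (0.109%) and 7 for cerebellum (0.0576%), with Cd74, Ccr1 and Phgdh higher in cortex than in striatum, and Adam9, Brox and Kdm5d among the 10 lower. These comparisons share the cortex libraries.

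Cd74, the invariant chain that guides MHC class II assembly, lay higher in cortex than in striatum and cerebellum, and close to hippocampus. It stood at 104, 127 and 136 CPM in cortex 1, 2 and 3, against 126, 61.97 and 95.1 CPM in hippocampus 1, 2 and 3, 54.9, 18.4 and 45.6 CPM in striatum 1, 2 and 3, and 39.8, 39.8 and 42.3 CPM in cerebellum 1, 2 and 3. Every cortex library exceeded every striatum and cerebellum library, while hippocampus 1 lay within the cortex range. The log2 difference from the mean of the other regions was 1.19 (95% interval 0.59 to 1.80, edgeR unadjusted p = 0.000976, adjusted p = 1.00), and 1.19 without cortex 1 and striatum 2. The class II list as a whole was divided: of 7 genes tested, Cd74 included, 3 lay higher and 4 lower, with a median of −0.04. That median was −0.25 (2 of 7 higher) without cortex 1 and 0.18 (6 higher) without cortex 2. H2-Ab1, a class II beta chain, had 13.7, 6.54 and 11.6 CPM in cortex 1, 2 and 3, against 6.35 to 17.3 CPM in the 9 other libraries (median 12.2), and H2-DMa, which loads peptides, had 119, 65.5 and 81.2 CPM in cortex 1, 2 and 3, against 50.7 to 100.1 CPM in the 9 other libraries (median 57.4). MHC class I genes were evenly split, 11 of 20 higher (median 0.02; −0.09 with the length correction). The chemokine receptor Ccr1 was also close to its level in hippocampus, with 149.6, 194 and 135 CPM in cortex 1, 2 and 3, 188, 137 and 175 CPM in hippocampus, 68.6, 29.7 and 60.2 CPM in striatum and 102, 129 and 54.6 CPM in cerebellum. Its differences were −0.06 against hippocampus, 1.59 against striatum and 0.75 against cerebellum. Over the 15 chemokine receptors the median was 0.12, with 10 higher. It was −0.07 (7 higher) without cortex 2 and 0.27 without cortex 3.

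The homeostatic genes of microglia lay slightly lower in cortex. Of 30 tested, 7 were above and 23 below the mean of the other regions, with a median log2 difference of −0.14, whereas over all 12217 genes 53.9% were above and the median was 0.03. Without cortex 1 and striatum 2, 1 of 30 was above (median −0.14, against 0.00 over all genes). After correction for transcript length the median was −0.23, against −0.04 over all genes. These all-gene values apply to the other lists under the same settings as well. The count was 13 of 30 above without cortex 3 (median −0.09) and 11 without cerebellum 1 (median −0.08). Csf1r, the receptor for colony-stimulating factor 1, had 5691, 7173 and 7918 CPM in cortex 1, 2 and 3, against 7290.4 to 10740.1 CPM in the 9 other libraries (median 8284). Cortex 1 and 2 lay below every other library and cortex 3 within their range, for a log2 difference of −0.32 (95% interval −0.59 to −0.05, edgeR unadjusted p = 0.0223, adjusted p = 1.00), which was −0.16 without cortex 1 and striatum 2. P2ry12, through which ramified microglia sense ADP, had 4171, 4085 and 4292 CPM in cortex 1, 2 and 3, against 4298 to 6406 CPM in the 9 other libraries (median 4758). All cortex values lay below the others, but the gap between cortex 3 and hippocampus 3 was far smaller than the spread within cortex (log2 difference −0.26, 95% interval −0.56 to 0.04). Its neighbour P2ry13 differed by −0.28 (SE 0.13) and the ectonucleotidase Entpd1 by −0.27 (SE 0.13; −0.14 without cortex 1). Csf1r overlaps a gene on the other strand, Hmgxb3. Cx3cr1, the fractalkine receptor, had 3065, 3463 and 1769 CPM in cortex 1, 2 and 3, against 2056 to 3739.7 CPM in the 9 other libraries (median 2778), and cortex 3 was the lowest of the 12 libraries while cortex 1 and 2 lay within the range of the others (log2 difference −0.07; 0.17 without cortex 3).

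Most innate immune sensors and cytokine receptors lay lower in cortex, by small amounts, but outside the Toll-like list not in every cortex library. The deviation from the mean of all 12 libraries was averaged over the genes of each list. For Toll-like receptors and NF-kB it was −0.32, −0.21 and −0.10 in cortex 1, 2 and 3. In the same order it was −0.29, 0.01 and 0.07 for cytokine receptors and −0.23, 0.05 and −0.09 for lineage transcription factors. For inhibitory receptors it was −0.09, −0.37 and 0.27, and for purinergic genes 0.13, 0.03 and −0.43. Of 34 genes of Toll-like receptors and NF-kB, 27 lay lower (median −0.21; −0.17 without cortex 1 and striatum 2, −0.34 with the length correction; −0.28 to −0.16 when a library at a time was left out). Traf6, the ubiquitin ligase downstream of these receptors, had 25.2, 33.3 and 33.5 CPM in cortex 1, 2 and 3, against 27.5 to 89.2 CPM in the 9 other libraries (median 55.6), so only cerebellum 2 overlapped with cortex (log2 difference −0.89, SE 0.34). The lipopolysaccharide receptor Tlr4 had 42.3, 114 and 163 CPM in cortex 1, 2 and 3, against 91.2 to 209 CPM in the 9 other libraries (median 149.8). Its low value was in cortex 1, the library with a deficit of long transcripts, and the part of that deficit in this value was not tested. Of 27 cytokine receptors, 20 lay lower (median −0.20; −0.11 without both libraries), 5 of them at an unadjusted p under 0.05 (Csf1r, Csf3r, Ifngr1, Il10ra and Il13ra1) and none higher at that level, where all genes gave 1.43% lower and 0.966% higher; Il10ra and Ifngr1 had cortex libraries below all others. Ifngr1, a chain of the interferon gamma receptor, had 1089, 1020.3 and 1104 CPM in cortex 1, 2 and 3, against 1172 to 1565 CPM in the 9 other libraries (median 1202; log2 difference −0.28). Csf3r, the receptor for granulocyte colony-stimulating factor, had 262, 274 and 383 CPM in cortex 1, 2 and 3, against 349 to 486 CPM in the 9 other libraries (median 376; log2 difference −0.38, SE 0.15; −0.57 without cortex 3). Lineage transcription factors lay lower in 14 of 20 (median −0.21; −0.09 without both libraries), for example Runx1 (−0.55, SE 0.26) and Stat3 (−0.51, SE 0.21; −0.27 without both libraries). Inhibitory immune receptors did so in 14 of 21 (median −0.16; −0.07 without both libraries, −0.07 without cortex 2), with the collagen receptor Lair1 at 404, 418 and 453 CPM in cortex 1, 2 and 3, against 440.4 to 586 CPM in the 9 other libraries (median 516; log2 difference −0.29, SE 0.12). Purinergic and adenosine genes lay lower in 11 of 17 (median −0.07; −0.17 with the length correction, −0.03 without cortex 3), with the ATP-gated channel P2rx7 at −0.42 (SE 0.19; −0.18 without both libraries).

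Genes of degradation lay lower as well, by small amounts, but not in cortex 3. The deviation from the mean of all 12 libraries, averaged over genes, was −0.19, −0.23 and 0.18 in cortex 1, 2 and 3 for lysosomal hydrolases. For autophagy genes it was −0.17, −0.21 and 0.12, and for phagocytosis and clearance receptors −0.51, −0.17 and 0.38. Cortex 3 was the highest of the 12 libraries for the hydrolases and for the phagocytosis receptors. Lysosomal hydrolases and cathepsins were lower in 31 of 40 (median −0.14; −0.25 to −0.10 when a library at a time was left out), autophagy initiation genes in 18 of 28 (median −0.11; −0.24 to −0.04) and phagocytosis and clearance receptors in 22 of 27 (median −0.06). For phagocytosis the count depended on cortex 1: 15 of 27 were higher without it (median 0.01). The count was 8 without striatum 2 (median −0.07) and 6 without cortex 3 (median −0.25). The membrane proteins and proton pump of lysosomes were evenly split (18 of 36 higher, median 0.00), but 13 were higher without cortex 3 (median −0.19). Without cortex 1 it was 11 (median −0.03), without both cortex 1 and striatum 2 it was 10 (median −0.05), and with the length correction 7 (median −0.10). For other lists the sign of the median turned when 1 library or another was left out. The median, the number of genes and the range over the libraries left out are given for complement (−0.02, 17 genes; −0.14 to 0.08), Fc receptors (0.02, 8 genes; −0.14 to 0.10), TGF-beta signalling (−0.06, 17 genes; −0.13 to 0.01) and iron handling (0.00, 17 genes; −0.04 to 0.08). The same held for cytokine and chemokine ligands (−0.03, 23 genes; −0.16 to 0.08), cholesterol efflux and lipid handling (−0.05, 25 genes; −0.24 to 0.13) and the PRC2 complex with H3K27 demethylases (−0.08, 13 genes; −0.16 to 0.12). With the length correction the complement and Fc receptor medians were −0.24 and −0.19. Without both cortex 1 and striatum 2 the ligand median was 0.21.

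**Figure D2:**
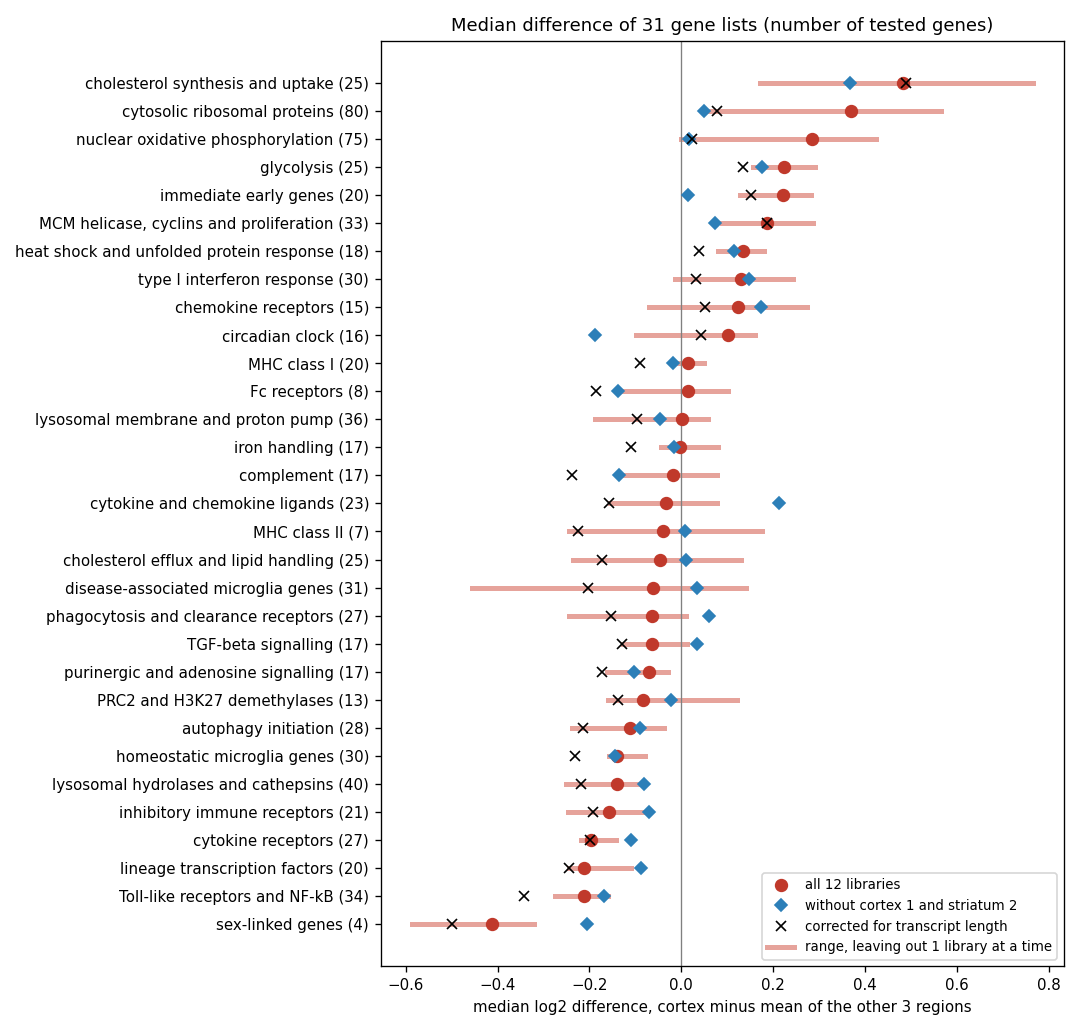
Median log2 difference of 31 gene lists, cortex minus the mean of the other 3 regions (horizontal axis), with the number of genes tested in parentheses. Circles are all 12 libraries, diamonds the fit without cortex 1 and striatum 2, crosses the length correction, and bars the range when 1 library at a time was left out. The ribosomal and oxidative phosphorylation medians of 0.37 and 0.29 came to 0.05 and 0.02 without these libraries, and the cholesterol synthesis median of 0.48 to 0.37.

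Nearly all ribosomal protein and oxidative phosphorylation genes lay higher in cortex, and cortex 1 carried most of the difference. Of 80 cytosolic ribosomal protein genes, 79 lay higher in cortex (median 0.37), and of 75 nuclear genes of oxidative phosphorylation, 73 did (median 0.29). The deviation from the mean of all libraries, averaged over the ribosomal genes, was 0.78, 0.18 and −0.18 in cortex 1, 2 and 3. Averaged over the oxidative phosphorylation genes it was 0.66, 0.01 and −0.06. In both lists cortex 1 was the highest of the 12 libraries and cortex 3 lay below 0. Leaving out cortex 1 gave medians of 0.05 (62 of 80 higher) and 0.00 (37 of 75 higher), and the length correction gave 0.08 and 0.02. Rps15a, a small subunit protein gene with pseudogene copies, had 65.2, 42.5 and 43.4 CPM in cortex 1, 2 and 3, against 19.6 to 45.9 CPM in the 9 other libraries (median 30.1), and Rpl21, of the large subunit, had 165, 123 and 89.2 CPM in cortex 1, 2 and 3, against 51.7 to 116 CPM in the 9 other libraries (median 84.6). The ATP synthase subunit Atp5o had 154, 96.9 and 80.6 CPM in cortex 1, 2 and 3, against 49.6 to 109 CPM in the 9 other libraries (median 84.2; log2 difference 0.49, SE 0.25; 0.11 without cortex 1 and striatum 2).

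The same lean was present across all genes. In 5 bins of equal size by transcript length, the median deviation of cortex 1 was 0.57, 0.28, 0.02, −0.25 and −0.42 going from the shortest to the longest bin, while cortex 2 had 0.01 and 0.16 and cortex 3 had −0.02 and 0.19 in the shortest and longest bins. Hippocampus 2 and cerebellum 1 leaned the same way as cortex 1, by less, and cerebellum 3 the opposite way. In the comparison of cortex with the other regions, 76.0% of the shortest genes and 40.8% of the longest were higher in cortex (medians 0.21 and −0.09, a difference of 0.30). Without cortex 1 that difference was −0.08, with medians of −0.02 and 0.06. What gave cortex 1 this profile was not tested.

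**Figure D3:**
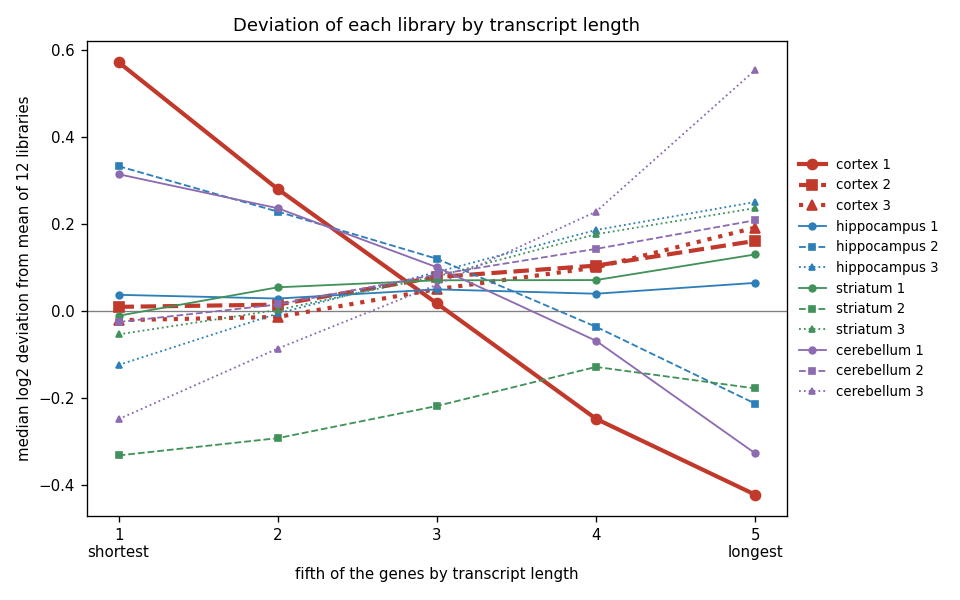
Median log2 deviation of each library from the mean of all 12 (vertical axis) in 5 bins of genes by transcript length (horizontal axis). The cortex 1 line (thick, solid) runs from 0.57 in the shortest bin to −0.42 in the longest, while cortex 2 and cortex 3 stay between −0.02 and 0.19.

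Genes of cholesterol synthesis and uptake had the largest positive median of the 31 function lists, with and without the libraries in doubt. Sterol synthesis runs through the mevalonate pathway to squalene and lanosterol and is switched on by SREBP2 when sterols in the endoplasmic reticulum are low. Of 25 genes tested, 22 lay higher in cortex (median 0.48), 21 without cortex 1 and striatum 2 (median 0.37), and 22 with the length correction (median 0.49). The list was spread unevenly over the regions: the median was 0.11 against hippocampus, 0.67 against striatum and 0.51 against cerebellum. It was also spread unevenly within cortex, with a mean deviation over its genes of 0.65, 0.99 and −0.40 in cortex 1, 2 and 3. The level was high in cortex 1 and 2 and low in cortex 3. Cortex 3 lay below every library of the other regions except striatum 2 and cerebellum 3 (−0.49). Leaving out cortex 2 brought the median to 0.17 and leaving out cortex 3 to 0.77. In striatum 2 the mean deviation was −2.20, against −0.86 over all genes in that library. Acat2, Fdft1, Hsd17b7, Mvd, Sc5d and Stard4 had no count there.

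Along the pathway, the enzymes differed by unequal amounts; Cyp51, Fdps and Tm7sf2 had the smallest p-values of the list, and the other members were named after their values were seen. Hmgcs1, an early synthase of the pathway, had 58.2, 114 and 70.5 CPM in cortex 1, 2 and 3, against 37.97 to 78.9 CPM in the 9 other libraries (median 58.4; log2 difference 0.48, SE 0.25; 0.16 without cortex 2). Cortex 1 and 3 lay within the range of the others, and cortex 2 above it. Fdps, which makes farnesyl diphosphate, had 94.6, 76.7 and 28.3 CPM in cortex 1, 2 and 3, against 10.7 to 54.5 CPM in the 9 other libraries (median 39.4): cortex 1 and 2 exceeded all other libraries and cortex 3 did not (log2 difference 0.91, SE 0.39, edgeR unadjusted p = 0.0377, adjusted p = 1.00; 0.46 without cortex 1 and striatum 2). Sqle, the squalene epoxidase, had 96.3, 113 and 32.1 CPM in cortex 1, 2 and 3, against 1.94 to 86.96 CPM in the 9 other libraries (median 38.7), again with cortex 1 and 2 above all other libraries and cortex 3 within their range (log2 difference 1.16, SE 0.61). Cyp51, the lanosterol demethylase, had 77.9, 169 and 72.2 CPM in cortex 1, 2 and 3, against 24.9 to 142 CPM in the 9 other libraries (median 62.5); hippocampus 3 was the only library of another region above cortex 1 and 3 (log2 difference 0.86, SE 0.35; 0.37 without cortex 2). Tm7sf2, the sterol reductase that acts next, was the member whose cortex libraries all lay above the others, with 26.7, 34.9 and 25.6 CPM in cortex 1, 2 and 3, against 9.35 to 23.4 CPM in the 9 other libraries (median 18.6; log2 difference 0.69, SE 0.34; 0.72 against hippocampus, 0.81 against striatum and 0.54 against cerebellum). Its counts may include reads of Vps51, which overlaps it on the same strand, and those of Cyp51 reads of Akap9 on the other. Among the regulators, Srebf2 differed by 0.03 on the log2 scale (−0.11 without cortex 2, 0.24 without cortex 3) and its escort protein gene Scap by −0.29 (−0.13 without striatum 2). The retention factor Insig1 differed by 0.53 (SE 0.72; 1.19 without striatum 1 and 0.35 without striatum 2).

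**Figure D4:**
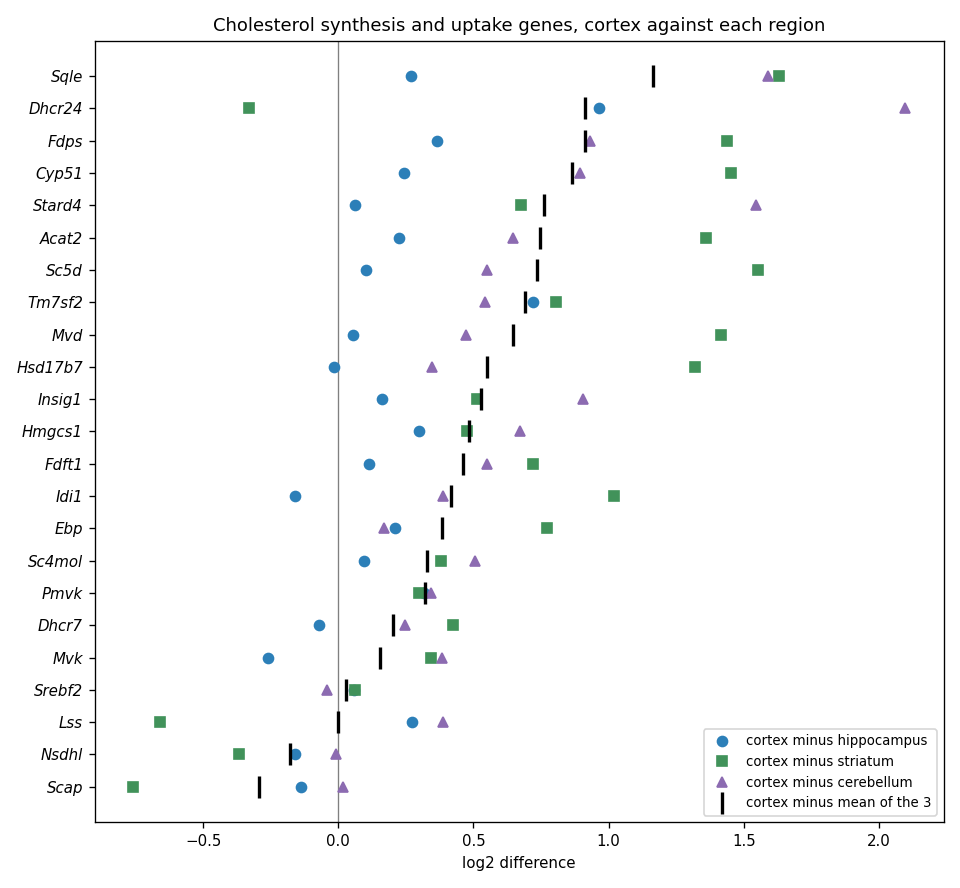
Log2 difference of 23 cholesterol synthesis and uptake genes (rows) for cortex minus hippocampus, striatum and cerebellum, which share the cortex libraries, with a bar for the mean of the 3. The differences from hippocampus lie nearest to 0 for most genes, while Sqle, Fdps and Cyp51 differ from striatum by 1.63, 1.44 and 1.45.

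The start-site regions of 3 of these genes are shown to place the list next to its known regulation: Tm7sf2 because its libraries did not overlap, Cyp51 because it had the smallest p of the list, and Hmgcs1 because its window held a sterol regulatory element. Each is the 250 bases upstream of the RefSeq start (GRCm38.p6), written 5′ to 3′ on the strand of the gene. Capitals mark, on either strand, the classical sterol element TCACNCCAC, the CCAAT box and the GC box GGGCGG. The marked motifs do not overlap each other in these windows.
Tm7sf2 (chr19:6067851-6068100, minus strand): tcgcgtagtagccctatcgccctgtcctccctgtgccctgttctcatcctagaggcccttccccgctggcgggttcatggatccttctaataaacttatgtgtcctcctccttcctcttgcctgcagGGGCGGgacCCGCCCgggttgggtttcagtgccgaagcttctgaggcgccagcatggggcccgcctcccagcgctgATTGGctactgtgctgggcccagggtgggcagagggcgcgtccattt
Cyp51 (chr5:4104698-4104947, minus strand): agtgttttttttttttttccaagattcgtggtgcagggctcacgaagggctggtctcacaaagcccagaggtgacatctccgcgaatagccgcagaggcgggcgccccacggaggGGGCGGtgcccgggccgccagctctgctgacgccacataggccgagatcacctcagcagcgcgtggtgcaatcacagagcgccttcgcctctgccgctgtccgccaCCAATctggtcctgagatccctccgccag
Hmgcs1 (chr13:119690101-119690350, plus strand): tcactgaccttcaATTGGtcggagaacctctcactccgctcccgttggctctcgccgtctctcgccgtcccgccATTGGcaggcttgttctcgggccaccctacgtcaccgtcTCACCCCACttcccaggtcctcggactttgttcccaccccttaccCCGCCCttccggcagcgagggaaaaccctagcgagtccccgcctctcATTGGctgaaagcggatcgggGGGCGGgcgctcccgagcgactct

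The sterol element was found in 1 of 22 windows of the 18 list members with a promoter entry, that of Hmgcs1, and in 1.05% of all 32851 windows of that length. The CCAAT box was found in 16 of the 22, against 33.8% of all windows, and the GC box in 18 of the 22, against 32.7%. A match describes the letters only and is not a binding site.

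Glycolysis genes lay higher in cortex in most cases, whichever library was left out. Of 25 tested, 18 lay higher (median 0.22; 0.17 without cortex 1 and striatum 2, 0.13 with the length correction; 0.16 to 0.29 when a library at a time was left out). The mean deviation over these genes was 0.25, 0.20 and 0.36 in cortex 1, 2 and 3. Hippocampus 2 and 3 were as high as cortex, with −0.06, 0.36 and 0.33 in hippocampus 1, 2 and 3. Gapdh had 422, 351 and 339 CPM in cortex 1, 2 and 3, against 242 to 366 CPM in the 9 other libraries (median 287), with striatum 2 above cortex 2 and 3 (log2 difference 0.31, SE 0.14; 0.09 with the length correction). Tpi1, the triose phosphate isomerase, had 187, 187 and 153 CPM in cortex 1, 2 and 3, against 90.2 to 197 CPM in the 9 other libraries (median 137; log2 difference 0.35; 0.16 with the length correction), and Ldha, the lactate dehydrogenase A chain, had 452, 409 and 352 CPM in cortex 1, 2 and 3, against 233 to 480.1 CPM in the 9 other libraries (median 317; log2 difference 0.35; 0.21 with that correction).

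Genes of DNA replication and of acute responses lay higher than the mean of the other regions by small amounts. Against hippocampus alone, the median was 0.01 for the proliferation list and 0.003 for heat shock and unfolded protein genes. Against striatum these medians were 0.29 and 0.26, and against cerebellum 0.27 and 0.14. In the proliferation list, 27 of 33 were higher (median 0.19; 0.07 without cortex 1 and striatum 2). Mcm3, a subunit of the replicative helicase, had 415, 425 and 431 CPM in cortex 1, 2 and 3, against 166 to 465 CPM in the 9 other libraries (median 300.3); the cortex values were close together and hippocampus 3 exceeded them (log2 difference 0.50, SE 0.21). Phgdh, the first enzyme of serine synthesis, had 402, 339 and 288 CPM in cortex 1, 2 and 3, against 153 to 369 CPM in the 9 other libraries (median 243; log2 difference 0.51, SE 0.17), and the difference from striatum was the largest (0.18 against hippocampus, 0.97 against striatum and 0.37 against cerebellum). Of 20 immediate early genes, which are induced within minutes of stimulation, 14 were higher (median 0.22), but 11 and a median of 0.01 were left without the 2 libraries. Egr1 was the member that differed most in p, with 26.5, 13.8 and 34.1 CPM in cortex 1, 2 and 3, against 3.01 to 18.6 CPM in the 9 other libraries (median 9.17): cortex 2 overlapped with hippocampus 3 and with striatum 1 and 3 (log2 difference 1.29, SE 0.49; 1.13 without both libraries). Fos stayed low throughout, with 6.15, 1.62 and 1.36 CPM in cortex 1, 2 and 3, against 0 to 7.23 CPM in the 9 other libraries (median 0.950). Heat shock and unfolded protein genes were higher in 15 of 18 (median 0.14; 0.12 without the 2 libraries, 0.08 without cortex 2), but in 11 with the length correction (median 0.04). The mitochondrial chaperonin Hspe1 differed by 0.57 (SE 0.25; 0.32 without cortex 1 and 0.26 with the length correction). Type I interferon response genes were higher in 18 of 30 (median 0.13), with a range of −0.01 to 0.24 when a library at a time was left out, so the sign turned without cortex 3, and 0.03 with the length correction.

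The 3 cortex libraries differed among themselves in genes of microglial activation by more than cortex differed from the other regions. For 31 disease-associated microglia genes, the set that microglia raise around plaques and damage, the median difference from the other regions was −0.06. The mean deviation over these genes, however, was −0.30, −0.60 and 0.84 in cortex 1, 2 and 3. Spp1, osteopontin, had 23.02, 21.4 and 539 CPM in cortex 1, 2 and 3, Clec7a, the beta-glucan receptor, had 2.73, 1.16 and 51.7 CPM in cortex 1, 2 and 3, and Itgax, an integrin chain, had 0.380, 4.79 and 33.01 CPM in cortex 1, 2 and 3. Gpnmb, a glycoprotein of lipid-laden macrophages, had 3.04, 0 and 53.7 CPM in cortex 1, 2 and 3, and Apoe had 2887, 2147 and 5459 CPM in cortex 1, 2 and 3. Cortex 3 was the high library for each of these genes, which apart from Apoe were named after their values were seen, by an order of magnitude or more for Spp1, Clec7a and Gpnmb. Other regions were divided in the same way: Spp1 was at 29.8, 553 and 161 CPM in hippocampus 1, 2 and 3, at 26.7, 217 and 177 CPM in striatum and at 24.6, 54.2 and 225 CPM in cerebellum. Without cortex 3 the median of the list was −0.46, and without cortex 2 it was 0.14.

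Markers of border-associated macrophages were high in the same cortex library. Their mean deviation was −0.89, −0.67 and 1.19 in cortex 1, 2 and 3 (15 of 16 markers tested). Their summed level was 982, 1467 and 1920.4 CPM in cortex 1, 2 and 3, with none at 0 in all cortex libraries. In the other libraries it was 936 to 2478 CPM (median 1413). By this sum cortex 2 lay above that median, and striatum 2 (2478 CPM) and cerebellum 3 (1950 CPM) exceeded cortex 3. Of 3 markers named after their values were seen, the coagulation factor gene F13a1 had 3.34, 3.95 and 66.1 CPM in cortex 1, 2 and 3, the hyaluronan receptor Lyve1 had 0, 0 and 23.4 CPM in cortex 1, 2 and 3, and the scavenger receptor Cd163 had 0.152, 0 and 9.19 CPM in cortex 1, 2 and 3. Over the 3 cortex libraries these genes and the disease-associated genes were high together, and the part of such macrophages in the levels of Spp1 or Clec7a was not tested. Outside cortex, the mean deviations of both lists lay above 0 in hippocampus 3, striatum 3 and cerebellum 3, which share the replicate number of cortex 3. In these libraries they were 0.26, 0.35 and 0.63 for the disease-associated genes and 0.79, 0.45 and 0.92 for the border macrophage markers. Replicate 1 lay below 0 for the disease-associated genes in cortex, hippocampus, striatum and cerebellum (−0.30, −0.26, −0.63 and −0.56). Whether these levels followed the replicate number was not tested. Hippocampus 2 was at 0.85 for the disease-associated genes and −0.55 for the border macrophage markers, and hippocampus 1 at −0.26 and 0.53. Homeostatic genes varied little among the cortex libraries, with mean deviations of −0.11, −0.06 and −0.17.

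Y-linked genes lay lower in cortex mainly when set against striatum. Over the 4 sex-linked genes tested, the median log2 difference was −0.86 against striatum, −0.13 against hippocampus and −0.40 against cerebellum. Kdm5d, a histone demethylase gene, had 12, 15.6 and 8.88 CPM in cortex 1, 2 and 3, against 15.3, 16.8 and 15.3 CPM in hippocampus, 63.4, 126 and 55.3 CPM in striatum and 10.7, 15.8 and 56.1 CPM in cerebellum. The 3 striatum libraries and cerebellum 3 were high, and cortex, hippocampus and the remaining cerebellum libraries lay between 8.88 and 16.8 CPM (log2 difference from the mean −1.43, SE 0.49, edgeR unadjusted p = 0.0127, adjusted p = 1.00). Ddx3y, an RNA helicase gene, differed by −0.54 (SE 0.27; −0.34 without cortex 1 and striatum 2), and over the 4 sex-linked genes tested the median was −0.41, or −0.20 without cortex 1 and striatum 2.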

How the data were processed

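RNA of sorted TMEM119+ microglia was converted to cDNA with the Smart-Seq v4 kit and tagmented with Nextera XT, and all libraries were sequenced as 1 pool, per the labels' protocols. The authors deposited raw read counts per gene; Trim Galore 0.4.3, STAR 2.5.3a, Picard, HTSeq and the mm10 build are named in the submitters' processing notes. Tool roles, gene annotation and strand setting were not given in the sources used here.

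Genes were kept with edgeR's filterByExpr (minimum count 10, minimum total 15), which left 12217 of 23337. Library sizes were scaled by TMM, and CPM on the log2 scale used a prior count of 2. The main test was edgeR's quasi-likelihood test (edgeR 4.0.16, limma 3.58.1, R 4.3.3) on all 12 libraries with 4 region means, contrasting cortex with the equally weighted mean of the other 3 regions and with each alone, with Benjamini-Hochberg adjustment over all genes. DESeq2 1.42.0, limma-voom, other scaling and filtering, a replicate block, a length correction and the omission of libraries were alternatives. The test script was checked on simulated counts. No pair of replicates was a duplicate: the chi-square per degree of freedom between replicate libraries was 32.5 to 95.0.

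The text names, in each direction, up to 12 genes with a mean of at least 5 CPM and up to 3 below it, by smallest p among genes whose cortex libraries all lay above or below the 9 others; the 15 most abundant genes per kilobase; up to 3 members of each function list and 2 of each marker list by smallest p; and Tmem119, P2ry12, Cx3cr1, Csf1r, Cd74, Ccr1 and Apoe. The first 3 of these sets leave out genes of ribosomal proteins and symbols of predicted genes or clones. Other genes, DESeq2 calls and further list members among them, were named after their values were seen. A few genes within these sets are not reported here. The members and lists were chosen with earlier results of these data known. Gene positions, overlaps and transcript lengths are those of GENCODE vM21 (GRCm38), and promoters those of RefSeq, GRCm38.p6. No counting interval is given for single values; counting error is one part of the spread between libraries.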

Additional observations from a re-analysis of the deposited data

Results flagged for a closer look

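Of 66 values examined in the 9 libraries of the other regions, 9 had a library that lay far from the rest, where chance gives about 1 in 20. In 7 of the 9 the library was striatum 2. It had no count for 9.84% of the well covered genes (averaging 50 counts or more), against 0.0399% to 0.439% in the other 8 libraries, and a mean correlation of 0.754 with the cortex libraries, against 0.888 to 0.916. Its level was 390 CPM for Ap3d1 (139 to 249 CPM in the other 8), 73.6 CPM for Mtrr (18.4 to 28.3 CPM), 12.4 CPM for Mad1l1 (36.8 to 57.5 CPM), 336 CPM for Brox (114 to 186 CPM) and 252 CPM for Scap (83.6 to 139 CPM). Cyp51 stood at 142 CPM in hippocampus 3, against 24.9 to 66.7 CPM in the other 8 libraries. Hspb9 stood at 0.554 CPM in striatum 3, against 0 to 0.277 CPM.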

How the results depend on the processing

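Each alternative except DESeq2 gave 0 genes past the adjusted threshold in each comparison it was run for (the 2-group fit only against the mean of the other regions); DESeq2 called 7 against the mean of the other regions, 5 against hippocampus, 13 against striatum and 7 against cerebellum. Without the filter on low counts, 698 of 17184 genes stood at an unadjusted p under 0.05, 526 higher and 172 lower, against 118 higher and 175 lower with it. The difference in correlation within and beyond cortex ranged from −0.0110 (without striatum 2) to 0.0153 when 1 library was left out, and was −0.0070 without cortex 2 and −0.0077 without both cortex 1 and striatum 2. The replicate numbers did not meet the criterion for pairing over all regions: over 18 same-numbered pairs the correlation of deviations was −0.120 to 0.287 (median 0.0263), with 4 above 0.1, and 7 of 12 libraries correlated best with their own number. Between cortex and cerebellum, though, the same-numbered pairs gave 0.101 to 0.287 and the others −0.225 to −0.000731, and the block over all regions called 0 genes there (196 at an unadjusted p under 0.05, against 189). With the replicate block, edgeR called 0 genes (305 at an unadjusted p under 0.05) and the difference in correlation was 0.0126 (exact permutation p = 0.405). The block with the length correction, added after seeing the data, called 0 (237 at that level). The length correction moved the median of all genes to −0.04, against 0.03. Of 1386 recomputed values of 66 genes, which hold each printed difference, 13 changed sign, all for Tmem119, Cx3cr1 and Srebf2, and 1 passed the threshold newly (Fbxl8 under DESeq2, −5.42). Tmem119 was −0.040 with the length correction, −0.047 with the block as well, −0.18 without both cortex 1 and striatum 2, and −0.16 to 0.29 when 1 library was left out. That range was −0.26 to 0.17 for Cx3cr1 and −0.11 to 0.24 for Srebf2, which was −0.094 without both libraries. Of 774 list medians, 51 moved by more than the spread between libraries. Without TMM scaling, mean CPM in cortex moved beyond its SD for 2 of 66 genes, P2ry12 and Mcm3. With 3 libraries a region, small differences cannot be told from the spread.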

Other observations

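Clock genes were divided between higher and lower levels in cortex. Of 16 genes of the circadian clock tested, 10 lay higher in cortex (median log2 difference 0.10), but 5 did without cortex 1 and striatum 2 (median −0.19). The median ranged from −0.10 (without cortex 2) to 0.16 when 1 library was left out. The mean deviation over these genes was −0.14, 0.37 and −0.05 in cortex 1, 2 and 3. Rora, a nuclear receptor that activates clock genes, had no count in any cortex library, against 0 to 8.08 CPM in the 9 other libraries (median 1.68); hippocampus 1 and striatum 2 also had none. Dbp, a clock output factor, had 6.68, 6.92 and 7.21 CPM in cortex 1, 2 and 3, against 0 to 14.01 CPM in the 9 other libraries (median 6.84), and was named after its values were seen.

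Low counts of a neuronal enzyme were shared by cortex and hippocampus. Eno2, the neuronal enolase, had 0.228, 0.777 and 2.19 CPM in cortex 1, 2 and 3, against 0, 2.40 and 1.40 CPM in hippocampus 1, 2 and 3 and no count in any striatum or cerebellum library. Its part in the neuronal or glycolysis lists was not tested.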
